A study of Mus musculus with 6 samples.

Results

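The matrix metalloproteinases (Mmp genes) and their tissue inhibitors (Timp genes) were followed in liver RNA of Mttp-IKO mice and their controls after 3 weeks of a methionine- and choline-deficient (MCD) diet. The group holds 10 genes, taken by symbol from the 41388 genes of the count tables. They are the proteases Mmp2, Mmp8, Mmp9, Mmp12, Mmp13, Mmp14 and Mmp19 and the inhibitors Timp1, Timp2 and Timp3. All 10 passed the filter on low counts. Of the 7 proteases, Mmp13, Mmp12 and Mmp2 fell in Mttp-IKO liver, and of the 3 inhibitors Timp2 fell. No gene of the group rose. Mmp14, on average the most abundant per length of these 7 proteases, and the low-level Mmp9 and Mmp8 did not pass the test.

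Liver RNA was sequenced as 3 control and 3 Mttp-IKO pools. The background was C57BL/6. By the study's methods, all mice carried floxed Mttp alleles (Mttp f/f) and the Villin Cre ERT2 transgene. Male mice received tamoxifen (TAM) at 50 µg per g body weight per day for 5 days (Mttp-IKO) or vehicle (control). The MCD diet, which produces steatohepatitis, began 3 weeks later, at an age of 12 to 16 weeks. The mice were fasted for 4 to 6 h before the liver was taken. The labels and the study's results call the controls wild type, while its methods describe littermates given vehicle. The control genotype is thus not settled by these sources. TAM itself was given to the Mttp-IKO mice and not to the controls. The Villin promoter drives the Cre in intestinal epithelium, so the gene was deleted in the gut and the RNA was read in liver. Each pool combined RNA of 3 to 4 mice (the series description speaks of 12 livers), so the replicate is a pool and p-values measure the spread between pools. Liver Mttp was at 90.4, 186 and 175 CPM in control pools 1 to 3 and at 145, 129 and 161 CPM in Mttp-IKO pools 1 to 3, which does not check the gut deletion.

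Levels are given as CPM, the counts of a gene relative to the total of its pool, after scaling by the trimmed mean of M values (TMM). The pools held 25271585 to 36238734 reads on genes, so that 3 reads, the most that a count of 0 allows, correspond to 0.0828 to 0.119 CPM, for counting error only. Genotypes were compared by edgeR's quasi-likelihood test over 17287 genes with Benjamini-Hochberg adjustment, and a gene is said to rise or fall where its adjusted p was under 0.05. By this rule 694 genes were called, 4.01% of those tested (3.09% lower and 0.92% higher in Mttp-IKO pools). Hepatocyte markers showed that the tissue was liver, with Alb at 54150 ± 14455 CPM in controls against 104754 ± 24602 CPM in Mttp-IKO pools (SD, n = 3). Control pool 2 held 861 CPM of striated muscle transcripts and control pool 1 held 112 CPM, against 0.461 to 1.29 CPM in control pool 3 and the Mttp-IKO pools. In Mttp-IKO pool 3, 1.85% of protein-coding reads fell on genes with under 1000 nt of exon, against 4.00 to 4.30% in the other pools, which among the 10 genes touches Timp1, whose exons cover 888 nt.

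Metalloproteinases are zinc-dependent enzymes that are made as inactive precursors and cut collagens, elastin, basement membrane proteins and other proteases once their propeptide is removed. Timp proteins bind to the active site and block it, and Timp2 also takes part in the activation of pro-Mmp2 by the membrane-bound Mmp14 at the cell surface. In injured liver these genes are known from stellate cells, macrophages and neutrophils, where they take part in the build-up and removal of scar matrix.

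The 10 genes fall into the roles of gelatinases (Mmp2 and Mmp9), collagenases (Mmp8 and Mmp13), the macrophage elastase Mmp12, the membrane-type protease Mmp14, Mmp19 and the inhibitors. Mmp13 and Mmp12, the pair with the largest differences, are neighbors on chromosome 9, in a cluster of Mmp genes that on GRCm38 holds Mmp13 (7272514 to 7283333), Mmp12 (7344381 to 7369499) and Mmp8 (7558429 to 7568486) and ends with Mmp7 (7692090 to 7699585). The sequences upstream of both transcription starts are shown because these neighbors fell together and each holds the letters bound by AP-1, the dimer of Jun and Fos proteins (TGANTCA, which reads the same on both strands). These are the 250 bases before the start, from RefSeq on GRCm38.p6, plus strand, and the capitals mark the AP-1 letters.

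Mmp13, chr9:7272264-7272513: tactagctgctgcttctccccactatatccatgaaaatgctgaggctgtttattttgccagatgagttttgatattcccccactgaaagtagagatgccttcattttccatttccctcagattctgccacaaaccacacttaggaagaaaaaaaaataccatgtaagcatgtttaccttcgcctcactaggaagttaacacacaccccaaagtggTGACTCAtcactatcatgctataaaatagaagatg

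Mmp12, chr9:7347124-7347373: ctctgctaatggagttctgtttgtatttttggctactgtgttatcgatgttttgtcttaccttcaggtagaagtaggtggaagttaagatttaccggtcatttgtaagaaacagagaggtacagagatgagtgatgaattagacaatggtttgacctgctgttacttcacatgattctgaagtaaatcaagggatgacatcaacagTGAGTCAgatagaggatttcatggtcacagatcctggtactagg

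The letters begin 35 bases before the Mmp13 start and 44 bases before the Mmp12 start, and the Mmp12 window lies within an intron of longer Mmp12 transcripts. A second Mmp12 start has a promoter at chr9:7344147-7344446 in which these letters were not found. RefSeq promoters of 300 bases (250 before and 50 after the start) were at hand for 7 of the 10 genes, 8 promoters in all, and 2 of the 8 held the letters. Of all 32851 promoters of that length, 7.81% did. A match in letters is a description and not a binding site.

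Mmp2, Mmp9 and Mmp12 are also in the study's list of quantitative PCR primers, while its text and legends name no PCR result for them. The primers, as forward and reverse, are shown because they fix which stretch of each transcript stands for the gene.

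Mmp2 forward: tgggacaagaaccagatcacata
Mmp2 reverse: aaagcatcatccacggtttca
Mmp9 forward: gggccgcccagatga
Mmp9 reverse: cagggagagctgcttctgaag
Mmp12 forward: gatgtgaggcaggagctcatg
Mmp12 reverse: ggcttgattcctgggaagtg

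Matched to the 141767 transcripts of GENCODE M21, each pair hit transcripts of its own gene and of no other. The Mmp2 product of 77 nt spans exons 2 and 3 (chromosome 8, 92830822 to 92831735 on GRCm38), the Mmp9 product of 74 nt lies in exon 2 (chromosome 2, 164948863 to 164948936), and the Mmp12 product of 71 nt lies in exon 9 (chromosome 9, 7357809 to 7357879).

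Mmp2, or gelatinase A, cuts denatured collagen and type IV collagen (ENSMUSG00000031740, chromosome 8, 92827328 to 92853417). Its level was 17.5, 12.4 and 17.7 CPM in control pools 1 to 3 and 4.13, 5.56 and 4.07 CPM in Mttp-IKO pools 1 to 3. Every Mttp-IKO pool lay below every control pool. Mmp2 thus fell from 15.9 ± 3.01 to 4.58 ± 0.842 CPM (SD, n = 3 pools), which is 3.46-fold (log2 fold change -1.79 ± 0.223 SE, adjusted p = 0.0159, edgeR). Mmp9, gelatinase B (ENSMUSG00000017737, chromosome 2, 164940780 to 164955850), had 3.74, 1.64 and 1.62 CPM in controls against 3.61, 1.54 and 2.27 CPM in Mttp-IKO pools. The pools of the genotypes overlapped over nearly the whole range, and pool 1 was the highest of either genotype. The log2 fold change of Mmp9 was 0.08 with a standard error of 0.447 (adjusted p = 0.935, edgeR), and its sign turned with total-count scaling (-0.10).

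Mmp13 (ENSMUSG00000050578), an interstitial collagenase of rodent liver, opens the triple helix of fibrillar collagen. Its reads numbered 271, 113 and 189 in control pools and 5, 8 and 10 in Mttp-IKO pools, or 6.72, 3.13 and 5.90 CPM against 0.161, 0.274 and 0.419 CPM. The lowest control pool held more than any Mttp-IKO pool, and in the Mttp-IKO pools the count was not far above the limit of 3 reads. Mmp13 fell 18.6-fold (5.25 ± 1.88 to 0.285 ± 0.129 CPM, log2 fold change -4.22 ± 0.459 SE, adjusted p = 0.0126, edgeR). Mmp8, the collagenase stored in neutrophil granules (ENSMUSG00000005800), was at 1.24, 0.471 and 0.656 CPM in controls against 0.903, 0.343 and 1.30 CPM in Mttp-IKO pools. These pools overlapped, and the direction of Mmp8 was not fixed by the data (log2 fold change 0.09 ± 0.564 SE, adjusted p = 0.946, edgeR, and -0.10 with total-count scaling).

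Mmp12, macrophage elastase (ENSMUSG00000049723), cuts elastin and many other matrix proteins. It was at 188, 77.8 and 240 CPM in controls against 12.7, 26.2 and 36.9 CPM in Mttp-IKO pools. The control pools differed among themselves by more than those of any other protease of the group in absolute terms, and control pool 2 stood nearest to the Mttp-IKO pools. Mmp12 fell 6.68-fold (169 ± 82.8 to 25.3 ± 12.2 CPM, log2 fold change -2.74 ± 0.498 SE, adjusted p = 0.0306, edgeR). Mmp12 overlaps Mmp1b on the opposite strand over 157 nt of exon, and Mmp1b had 0 reads in every pool.

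Mmp14 (MT1-MMP) is the membrane-anchored protease that activates pro-Mmp2. It had 81.0, 70.6 and 77.3 CPM in controls against 110, 96.5 and 77.4 CPM in Mttp-IKO pools (ENSMUSG00000000957, chromosome 14, 54431604 to 54441258). Mttp-IKO pool 3 lay within the control range and the other Mttp-IKO pools above it. The difference did not pass the test (76.3 ± 5.26 and 94.7 ± 16.4 CPM, log2 fold change 0.31 ± 0.173 SE, adjusted p = 0.322, edgeR). Mmp19, a secreted protease of basement membrane proteins (ENSMUSG00000025355, chromosome 10, 128790953 to 128800824), was at 46.8, 42.9 and 45.3 CPM in controls against 31.9, 28.9 and 35.7 CPM in Mttp-IKO pools. These groups did not overlap, but the difference did not pass the threshold (log2 fold change -0.48 ± 0.143 SE, adjusted p = 0.0983, edgeR). Mmp19 shares 789 nt of exon with Tmem198b on the opposite strand, which had 118 to 166 reads a pool, and use of the strand in counting was not stated.

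Timp1 inhibits most secreted metalloproteinases and is induced in activated stellate cells. Its reads were 235, 60 and 131 in control pools and 45, 32 and 16 in Mttp-IKO pools, or 5.83, 1.66 and 4.09 CPM against 1.45, 1.10 and 0.671 CPM (ENSMUSG00000001131, chromosome X, 20870166 to 20874735). The groups did not overlap, although control pool 2 and Mttp-IKO pool 1 were close. Timp1 did not pass the threshold (3.86 ± 2.09 and 1.07 ± 0.390 CPM, log2 fold change -1.83 ± 0.496 SE, adjusted p = 0.0805, edgeR). Its lowest value was in Mttp-IKO pool 3, the pool short of reads on mRNAs of this length. Without that pool its log2 fold change was -1.59 (adjusted p = 0.122, edgeR), and with the trend of each pool with gene length removed it was -1.62 (adjusted p = 0.0778). With the DESeq2 Wald test the adjusted p of Timp1 was 0.00512, and without control pool 2 it was 0.0275 (edgeR). The span of Timp1 overlaps that of Syn1 on the opposite strand, with 0 nt of shared exon. Syn1 had 205, 95 and 127 reads in control pools and 51, 53 and 36 in Mttp-IKO pools.

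Timp2 binds Mmp2 and Mmp14. Its level was 56.8, 48.7 and 52.3 CPM in controls against 26.2, 25.2 and 28.4 CPM in Mttp-IKO pools (ENSMUSG00000017466, chromosome 11, 118301069 to 118355740). The Mttp-IKO pools were all far below the control pools, and Timp2 fell 1.98-fold (52.6 ± 4.03 to 26.6 ± 1.61 CPM, log2 fold change -0.98 ± 0.140 SE, adjusted p = 0.0181, edgeR). The span of Timp2 overlaps that of Cep295nl on the same strand, with 0 nt of shared exon (14 to 29 reads a pool on Cep295nl). Timp3, which is held in the extracellular matrix and also inhibits Adam proteases, was at 59.9, 45.6 and 56.8 CPM in controls against 32.8, 46.7 and 54.7 CPM in Mttp-IKO pools (ENSMUSG00000020044, chromosome 10, 86300372 to 86349506). Its pools overlapped and it did not pass the test (log2 fold change -0.27 ± 0.214 SE, adjusted p = 0.480, edgeR). Timp3 lies in a gene on the opposite strand, Syn3, with which it shares 1733 nt of exon (52 to 124 reads a pool on Syn3).

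**Figure D1:**
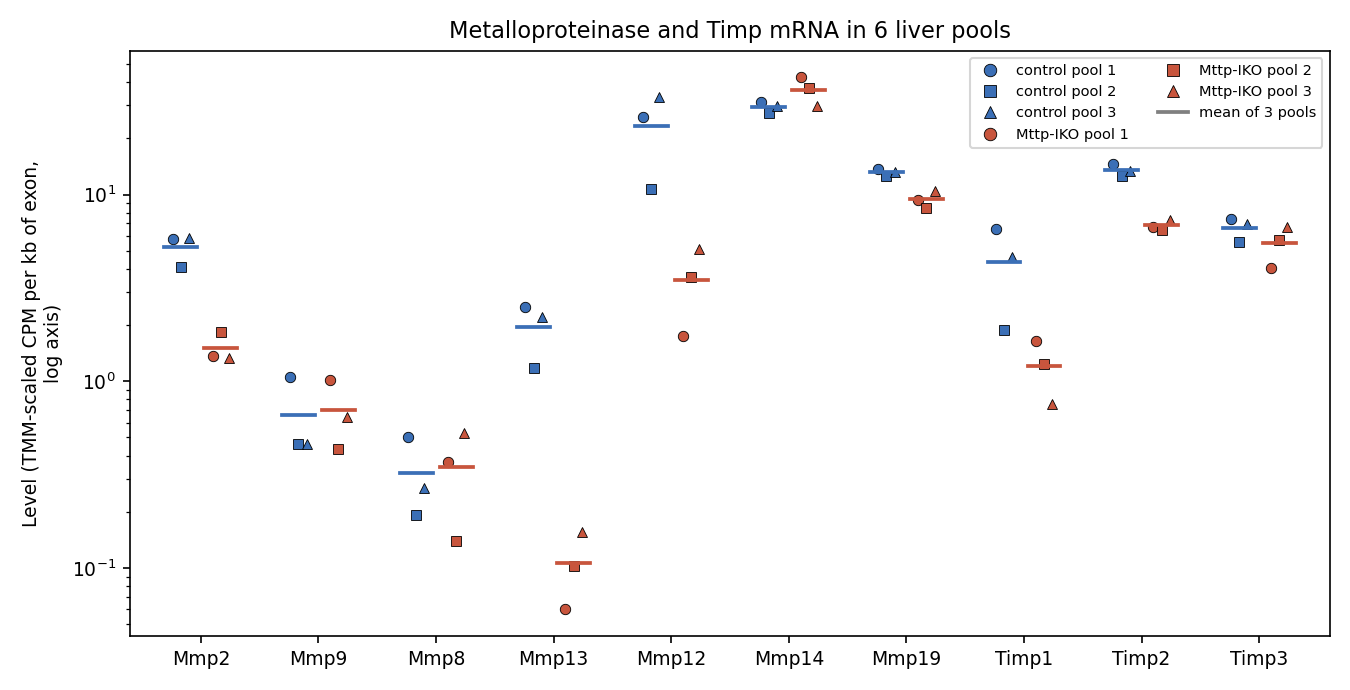
Level of each of the 10 genes in each pool, as TMM-scaled CPM per kilobase of exon on a log axis, with controls in blue, Mttp-IKO in red, a marker shape per pool and a bar at the mean of 3 pools. For Mmp13, Mmp12, Mmp2, Timp2, Mmp19 and Timp1 the red points all lie below the blue ones. For Mmp9, Mmp8 and Timp3 red and blue points mix, and for Mmp14 2 of the 3 red points lie above.

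**Figure D2:**
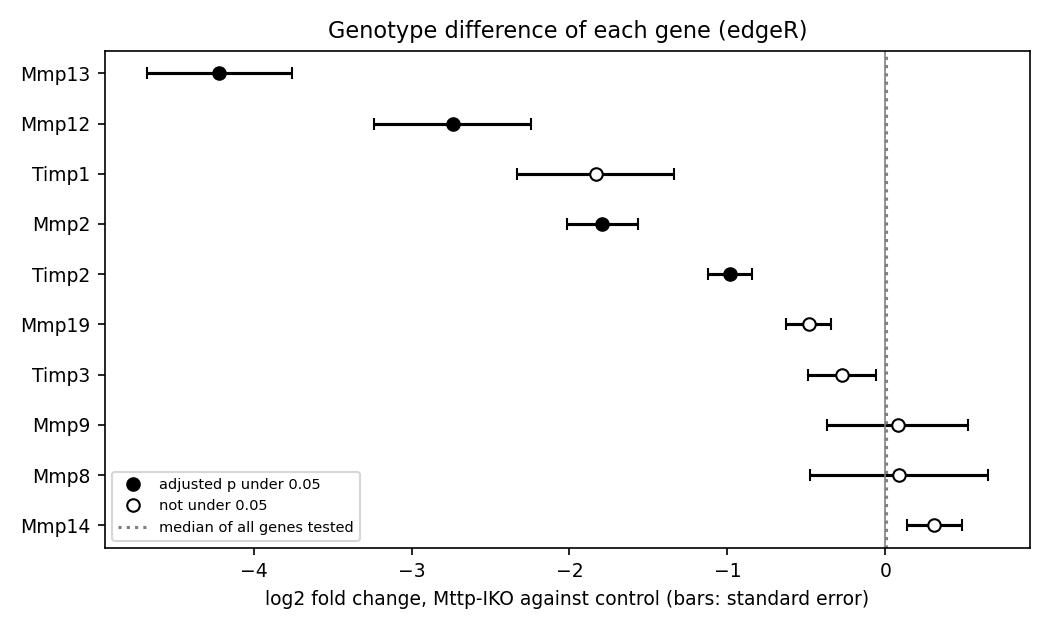
Log2 fold change of Mttp-IKO against control for the 10 genes from edgeR, with bars of 1 standard error, filled points for an adjusted p under 0.05 and a dotted line at the median of all genes tested. The differences run from -4.22 for Mmp13 to 0.31 for Mmp14, and the open points include Timp1 at -1.83, whose error bar is wide.

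In all, 4 of the 10 genes were called and all 4 were lower, beside 3.09% of all genes tested. In 6 of the 10 (the 4 with Mmp19 and Timp1) every Mttp-IKO pool lay below every control pool, a pattern that 16.5% of the genes tested showed, and in 0 of the 10 every Mttp-IKO pool lay above (14.5% of the genes tested). The median log2 fold change was -0.73, beside 0.01 over all genes tested. The plot of fold changes with their errors shows the spread within the group, from -4.22 for Mmp13 to 0.31 for Mmp14, which did not pass the test. By limma-voom 4 of the 10 were called (2.48% of all genes) and by DESeq2's Wald test 5 (11.5%). The number called was 0 without control pool 1 (0.136% of all genes called), 0 without control pool 3 (0.118%), 0 without Mttp-IKO pool 2 (0%, 3221 genes at an unadjusted p under 0.05 by edgeR) and 1, Mmp13, without Mttp-IKO pool 1 (0.307%). In each of those 4 fits 6 of the 10 genes had an unadjusted p under 0.05, as did 14.03, 14.21, 18.02 and 24.84% of all genes in the same order. The 4 genes kept their direction in every one of these fits, with log2 fold changes of -1.96 to -1.71 for Mmp2, -3.11 to -2.42 for Mmp12, -4.57 to -3.92 for Mmp13 and -1.06 to -0.94 for Timp2. Without control pool 2 and Mttp-IKO pool 3 together, a fit added after the data had been seen, 6 of the 10 genes were called (12.3% of all genes), Mmp19 (adjusted p = 0.0289, edgeR) and Timp1 (0.0116) among them.

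Levels of different genes can be set side by side only per length, here as TMM-scaled CPM per kilobase of exon. In control pools Mmp14 (29.4 ± 2.03), Mmp12 (23.3 ± 11.4), Timp2 (13.5 ± 1.03) and Mmp19 (13.2 ± 0.571) were the most abundant per length, and neighbors in this order overlapped. Timp3 (6.65), Mmp2 (5.23), Timp1 (4.35) and Mmp13 (1.96) followed, below the range of Mmp19, and Mmp9 (0.660) and Mmp8 (0.322) came last, below the range of Mmp13. In Mttp-IKO pools Mmp14 (36.5 ± 6.33) stood above all others, then Mmp19 (9.44 ± 0.993), and from Timp2 (6.83) down neighbors overlapped. Mmp12 moved from the second place to the fifth (3.49 ± 1.68) and Mmp13 from the eighth to the last (0.107 ± 0.0484).

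Of the summed level per length of the 7 proteases, Mmp12 made up 30.1 ± 10.2% in control pools and 6.90 ± 3.75% in Mttp-IKO pools. Mmp14 made up 40.6 ± 6.79% and 69.7 ± 6.87%, and Mmp19 18.3 ± 3.53% and 18.3 ± 3.06%. The sum itself was 74.1 ± 15.4 in control pools and 52.1 ± 4.14 in Mttp-IKO pools, and the nearest pools almost touched (56.5 in control pool 2 and 56.3 in Mttp-IKO pool 1). The summed level of the 3 inhibitors was 24.5 ± 4.28 and 13.5 ± 1.19. Within it Timp2 held 55.8% and 50.6% and Timp3 27.3% and 40.2%. Among these 7 proteases, the transcripts of Mttp-IKO liver were thus mostly Mmp14 and Mmp19, where in control liver Mmp12 took a large part. The shares leave out other Mmp genes, such as Mmp15. Its level per length was 37.9 ± 2.72 in control pools and 12.6 ± 4.05 in Mttp-IKO pools.

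To ask whether a protease and an inhibitor differed unequally within the same pools, the log2 ratio of their levels per length was taken in each pool for 6 pairs. With 3 pools against 3, an exact permutation test cannot give a two-sided p below 0.1, or 0.15 after adjustment over the 6 pairs, so no pair could pass. Mmp14 to Timp2 was 1.10, 1.12 and 1.15 in control pools and 2.65, 2.52 and 2.03 in Mttp-IKO pools, a difference of 1.28 (exact permutation p = 0.1). The control pools agreed closely and every Mttp-IKO pool lay above them. Mmp2 to Timp2 went the other way, with -1.34, -1.61 and -1.20 in control pools and -2.31, -1.82 and -2.44 in Mttp-IKO pools, a difference of -0.81 (exact permutation p = 0.1). Within the trio of activator, protease and inhibitor, every Mttp-IKO pool thus had a higher value of Mmp14 and a lower value of Mmp2 relative to Timp2 than any control pool, although the permutation test could pass neither ratio.

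Mmp13 to Timp1 was -1.39, -0.68 and -1.06 in control pools and -4.76, -3.59 and -2.27 in Mttp-IKO pools, a difference of -2.50 (exact permutation p = 0.1). Mmp9 to Timp1 differed by 1.85 in the other direction, from -2.66 ± 0.655 to -0.81 ± 0.641, without overlap (exact permutation p = 0.1). Here the Mmp9 values overlapped between genotypes and the Timp1 values did not. For Mmp12 to Timp1 the pools overlapped (2.45 ± 0.435 and 1.47 ± 1.33, exact permutation p = 0.3), as they did for Mmp14 to Timp3 (2.15 ± 0.111 and 2.75 ± 0.626, exact permutation p = 0.2). The ratios to Timp1 carry the limit given above for short mRNAs in Mttp-IKO pool 3, which had the highest Mmp13 to Timp1, Mmp12 to Timp1 and Mmp9 to Timp1 ratios of its genotype.

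**Figure D3:**
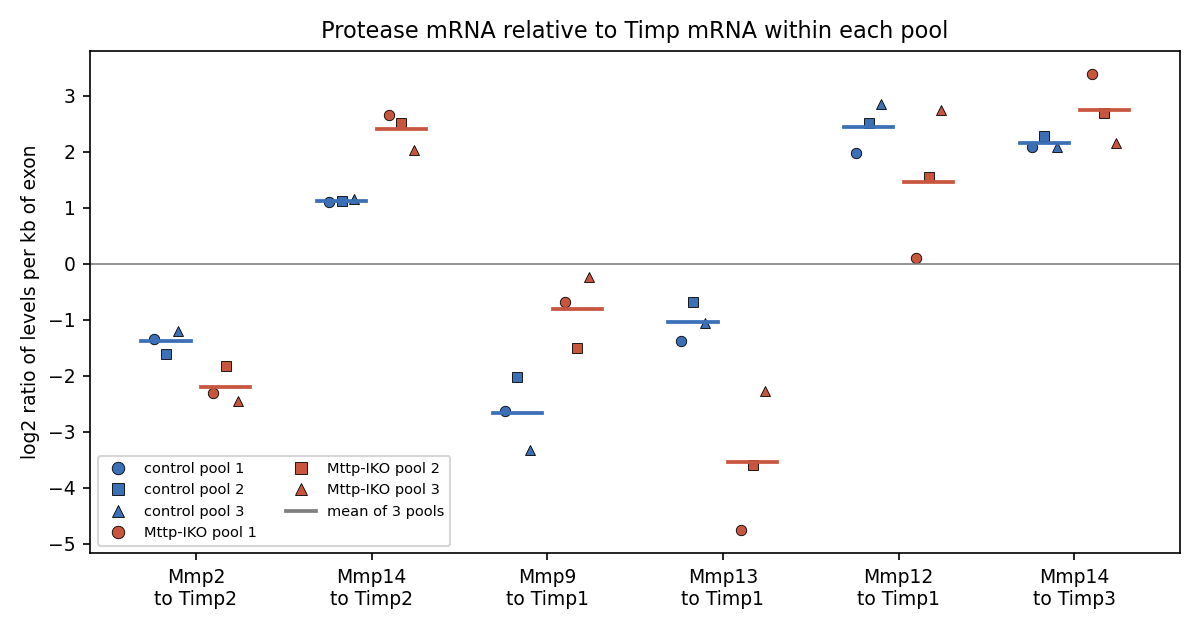
Log2 ratio of the level per kilobase of exon of a protease to that of an inhibitor within each pool (controls blue, Mttp-IKO red, bars at the mean of 3 pools). Mmp14 to Timp2 and Mmp9 to Timp1 are higher in every Mttp-IKO pool, Mmp2 to Timp2 and Mmp13 to Timp1 are lower, and the other pairs overlap.

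The cells that could have carried these transcripts were looked at through lists of marker genes. Over all genes tested, 4.01% were called by edgeR (3.09% lower, 0.92% higher), and 23.0% had an unadjusted p under 0.05. In bulk RNA, fewer cells of a type and less RNA per cell cannot be told apart. The recruited macrophage list (11 genes, among them Gpnmb, Lyz2 and Spp1) summed to 1313, 528 and 1364 CPM in controls against 276, 315 and 252 CPM in Mttp-IKO pools. It did not overlap, and 7 of its 11 genes were called, all lower, beside 3.09% of all genes tested. The number was 5 by limma-voom and 4 with a replicate block. It was 0 without control pool 1, control pool 3, Mttp-IKO pool 1 or Mttp-IKO pool 2. In those fits 9 to 11 of the genes had an unadjusted p under 0.05, as did 14.03 to 24.84% of all genes. Mmp12 had the same order of control pools as this list, with pool 3 highest and pool 2 lowest, but in Mttp-IKO pools Mmp12 was highest in pool 3, where the list was lowest. The Kupffer cell list (8 genes, led by Cd5l, Marco and Clec4f) summed to 394 to 509 CPM in control pools and 370 to 676 CPM in Mttp-IKO pools. It overlapped, and of its genes only Timd4, a receptor of resident Kupffer cells, was called (4.74 ± 0.416 to 10.6 ± 3.15 CPM, higher, adjusted p = 0.0425, edgeR). The Timd4 call was lost with total-count scaling (adjusted p = 0.0601, edgeR), by limma-voom (0.0583), with the replicate block (0.0611) and without any single pool other than Mttp-IKO pool 3.

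For the matrix-producing cells, the list of quiescent and general stellate cell genes (10 genes, led by Reln, Ecm1 and Lrat) summed to 724 to 856 CPM in control pools and 490 to 635 CPM in Mttp-IKO pools. The lowest control sum, in pool 2, held 68.1 CPM of Des, against 19.1 and 12.5 CPM in control pools 1 and 3. Des is also a muscle gene, and control pool 2 held the most muscle transcripts, as given above. Their part in this sum was not tested. Of the 10 genes of the list 4 were called, all lower (Lrat, Pdgfrb, Colec11 and Cygb), beside 3.09% of all genes tested. The number was 0 by edgeR without control pool 1, control pool 3, Mttp-IKO pool 1 or Mttp-IKO pool 2. In those fits 5 or 6 had an unadjusted p under 0.05, as did 14.03 to 24.84% of all genes. The list of activated stellate cells and fibroblasts (12 genes, led by Pdgfra, Postn and Tagln) summed to 195, 118 and 143 CPM in controls against 64.1, 66.0 and 63.7 CPM in Mttp-IKO pools. Of its 12 genes 8 were called, all lower, beside 3.09% of all genes tested. The number was 4 by limma-voom, 1 without control pool 1, control pool 3 or Mttp-IKO pool 1, and 0 without Mttp-IKO pool 2. In the last of these fits 11 had an unadjusted p under 0.05 by edgeR, as did 18.02% of all genes. Pdgfra, a broad marker of hepatic mesenchymal cells, was at 36.7 ± 4.00 and 31.0 ± 2.54 CPM and was not called (adjusted p = 0.368, edgeR). The sums of the recruited macrophage and activated stellate cell lists were thus lower in Mttp-IKO pools, as were Mmp12, Mmp13, Mmp2 and Timp2. The Kupffer cell sum overlapped between genotypes. The part of these cells in the differences was not tested.

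Neutrophil genes bear on Mmp8 and Mmp9, which neutrophils store in granules. Their list (11 genes, of which 5 were tested, led by Csf3r, S100a9 and S100a8) summed to 14.6 to 29.7 CPM in control pools and 13.2 to 21.7 CPM in Mttp-IKO pools, and 0 were called by edgeR, DESeq2 or limma-voom, with 1 at an unadjusted p under 0.05 by edgeR. Ly6g, the defining surface marker, had 0 reads in every control pool and 3, 0 and 2 reads in Mttp-IKO pools, no more than the limit that a count of 0 allows. Ly6g, S100a8 and S100a9 (942, 392 and 522 nt of exon) belong to the length class that took a lower share of reads in Mttp-IKO pool 3, where S100a8 was at 1.43 and S100a9 at 1.09 CPM. Endothelial genes (8 genes, led by Stab2, Cdh5 and Kdr) summed to 426 to 464 and 414 to 470 CPM, and 0 of them were called by edgeR, DESeq2 or limma-voom, with 0 at an unadjusted p under 0.05 by edgeR.

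Of the other lists, hepatocyte genes (8 genes, led by Alb, Apoa1 and Cps1) summed to 53497 to 86976 CPM in control pools and 105949 to 160551 CPM in Mttp-IKO pools without overlap. Most of this sum was Alb. Of the 8 genes, 4 were higher in every Mttp-IKO pool (14.5% of all genes tested) and 1, Ttr, was lower (16.5%). Ttr was at 3296 ± 511 and 2252 ± 687 CPM (adjusted p = 0.290, edgeR). Of the 8, 0 were called by edgeR or limma-voom. By edgeR 5 had an unadjusted p under 0.05 (23.0% of all genes), and DESeq2 called 4 (11.5%). B cell genes (led by Ighm, Jchain and Cd79a) summed to 10.9 to 26.6 and 4.45 to 8.96 CPM. The sums of the cholangiocyte, T cell, small intestine and pancreas lists overlapped between genotypes. Of their tested genes, 2 of 6, 2 of 7, 1 of 4 and 1 of 1 were lower in every Mttp-IKO pool. This pattern was shown by 16.5% of all genes tested, and 0 genes of these lists were called by edgeR.

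**Figure D4:**
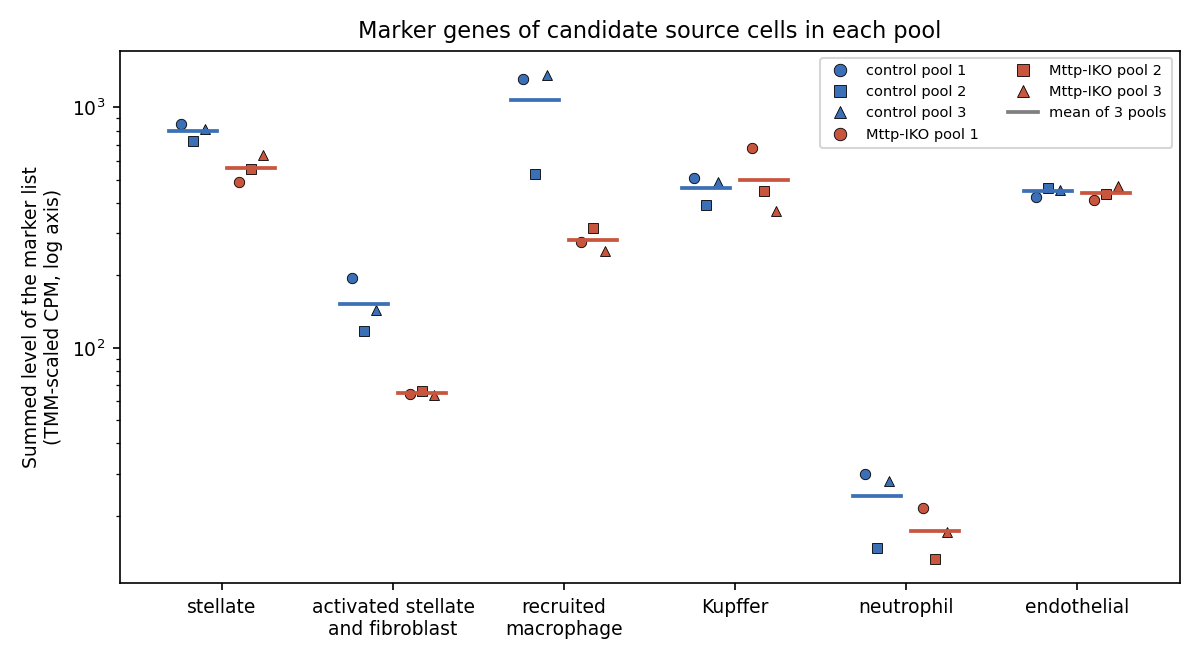
Summed TMM-scaled CPM of the marker genes of 6 candidate source cells in each pool, on a log axis (controls blue, Mttp-IKO red, bars at the mean of 3 pools). The stellate, activated stellate and recruited macrophage sums are lower in every Mttp-IKO pool, and the Kupffer, neutrophil and endothelial sums overlap.

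As a second view that uses no marker list, the protein-coding genes with the profile nearest to that of each gene over the 6 pools were found by the root mean square (RMS) distance between log2 CPM profiles centred on their own means, with a mean log2 CPM of at least 1. Nearness over 6 pools that share a genotype contrast is a description. Nearest to Mmp12 were Itgax (RMS 0.258), which encodes the integrin CD11c, Gpnmb (0.272), a glycoprotein of lipid-laden macrophages, and Sema4d (0.318). Itgax and Gpnmb are also in the recruited macrophage list. Gpnmb was at 543, 173 and 593 CPM in controls against 30.8, 104 and 105 CPM in Mttp-IKO pools, with its lowest control pool in pool 2 and its lowest Mttp-IKO pool in pool 1, as for Mmp12.

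Nearest to Mmp13 were Cib3 (0.331), the collagen gene Col3a1 (0.407) and Tnc (0.458), which encodes the matrix glycoprotein tenascin C. Nearest to Mmp2 were Spn (0.0796), which encodes the leukocyte surface protein CD43, the stellate cell gene Colec11 (0.0878) and P3h3 (0.143), a collagen prolyl hydroxylase gene. Timp1 lay nearest to Lgals3 (0.144), which encodes galectin-3, Ear2 (0.186) and Pstpip1 (0.190), of which Lgals3 is a macrophage product. Timp2 lay nearest to Tsc22d1 (0.0776), Samd9l (0.0791) and Gli3 (0.0820).

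For the genes that did not pass, Mmp14 lay nearest to Mfap1b (0.0258), Timm10b (0.0555) and Alg8 (0.0589), and Mmp19 nearest to Slc45a4 (0.0547), Plec (0.0601) and Gclm (0.0622). Timp3 lay nearest to Adck5 (0.0668), Zfp709 (0.0669) and Rin2 (0.0680). Mmp9 lay nearest to Nid1 (0.198), Akap12 (0.200) and Hcn2 (0.228), and Mmp8 nearest to Bcl3 (0.101), Dusp5 (0.123) and Fst (0.179). None of these nearest genes is in the neutrophil list. Most genes of that list, Ly6g and S100a8 included, lay below the level set for this search, so nothing is read from their absence.

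The other genes of extracellular proteolysis were read from lists by function. Their counts of called genes stand beside 4.01% of all genes tested (3.09% lower, 0.92% higher, edgeR). Of 16 other Mmp genes, 8 were tested and 2 were called, both lower. Mmp15 (MT2-MMP), a membrane-anchored relative of Mmp14, was at 179, 157 and 159 CPM in controls against 47.6, 42.1 and 75.0 CPM in Mttp-IKO pools. It fell without overlap (165 ± 11.8 to 54.9 ± 17.6 CPM, log2 fold change -1.59 ± 0.236 SE, adjusted p = 0.01885, edgeR). Mmp23 fell from 5.09 ± 0.855 to 1.76 ± 0.265 CPM (log2 fold change -1.53, adjusted p = 0.0241, edgeR). Of the chromosome 9 cluster, Mmp1a, Mmp1b and Mmp10 had 0 reads in every pool, Mmp3 had 0 to 12, and Mmp7 was not called (4.02 ± 2.17 and 4.50 ± 2.85 CPM, adjusted p = 0.895, edgeR).

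Of 7 other inhibitors, 5 were tested and 0 were called, by edgeR, limma-voom or DESeq2, with 0 at an unadjusted p under 0.05 by edgeR. The most abundant were the plasma protease inhibitors Pzp (3546 ± 292 and 5058 ± 1863 CPM, adjusted p = 0.328, edgeR) and Mug1 (1457 ± 472 and 2474 ± 1156 CPM, adjusted p = 0.274). With 5 genes tested and 4.01% of all genes called, nothing is read from the absence of calls. Timp4 and A2m did not pass the filter on low counts. A2m had 20, 2 and 8 reads in control pools and 0 in every Mttp-IKO pool.

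Metalloproteinase precursors are cut by plasmin and, for the membrane types, by furin. Of 11 genes of plasminogen activation and proprotein convertases, 2 were lower and 2 higher (3.09% and 0.92% of all genes tested). Every Mttp-IKO pool lay below every control pool for 3 of the 11 and above for 5 (16.5% and 14.5% of all genes tested). Plg, which encodes plasminogen, was among the 5 but was not called (1129 ± 300 and 2061 ± 258 CPM, adjusted p = 0.0937, edgeR). Plau, the urokinase plasminogen activator, fell from 11.4 ± 3.72 to 2.19 ± 0.351 CPM (log2 fold change -2.38 ± 0.301 SE, adjusted p = 0.0166, edgeR), and Plat, the tissue-type activator, from 5.71 ± 2.87 to 1.59 ± 0.447 CPM (log2 fold change -1.84, adjusted p = 0.0476). Furin rose from 618 ± 49.1 to 1212 ± 215 CPM (log2 fold change 0.97 ± 0.204 SE, adjusted p = 0.0435, edgeR), and the convertase gene Pcsk5 from 25.2 ± 1.29 to 39.5 ± 3.80 CPM (log2 fold change 0.65, adjusted p = 0.0478). The Pcsk5 call was lost in 11 of 17 alternatives, with total-count scaling (adjusted p = 0.105, edgeR), upper quartile scaling (0.0537), limma-voom (0.0584), no filter (0.0697), the length correction (0.0551), the replicate block (0.0808) and without any single pool other than Mttp-IKO pool 3. The Plat call was lost by limma-voom (0.0785) and without any single pool other than control pool 2, and the Furin call with the replicate block (0.0550) and without any single pool other than Mttp-IKO pool 3. The hepatocyte marker sum, most of it Alb, was also higher in every Mttp-IKO pool, and its part in the Furin and Pcsk5 values was not tested.

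Of 10 Adam genes, 9 were tested and 2 were lower, Adam8 (45.98 ± 26.19 to 8.78 ± 1.67 CPM, adjusted p = 0.0360, edgeR), a leukocyte sheddase, and Adam15 (12.8 ± 2.25 to 6.55 ± 0.616 CPM, adjusted p = 0.0389). Of 14 Adamts genes, 12 were tested and 3 were lower. For both lists this stands beside 3.09% of all genes tested. The Adamts genes were Adamts2 (33.2 ± 9.06 to 10.9 ± 2.21 CPM, adjusted p = 0.0223, edgeR), which trims procollagen, Adamts12 (6.33 ± 2.59 to 1.23 ± 0.162 CPM, adjusted p = 0.0186) and Adamts10 (26.1 ± 3.81 to 14.4 ± 2.20 CPM, adjusted p = 0.0476). By limma-voom Adam8, Adam15 and Adamts10 were not called (adjusted p = 0.0751, 0.0537 and 0.0592), nor were they with the replicate block (0.0610, 0.0615 and 0.0780, edgeR).

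Among 11 genes of matrix proteins that metalloproteinases cut, 5 were called, all lower, beside 3.09% of all genes tested. Col3a1 and Col1a1, the fibrillar collagens opened by Mmp13, fell by 3.93 and 3.72 on the log2 scale (adjusted p = 0.0111 and 0.0159, edgeR), and Col1a2 by 2.88 (0.0141). The basement membrane genes Lamb1 and Col4a1 fell by 1.07 and 0.89 on the log2 scale (0.0340 and 0.0474). The Col4a1 call was lost with DESeq2 size factors (adjusted p = 0.0503, edgeR), by limma-voom (0.0537), with the replicate block (0.0598) and without 4 of the single pools. The collagenase and its collagens were thus both lower, and Fn1, fibronectin, was at 2879 ± 385 and 4373 ± 554 CPM without passing the test (adjusted p = 0.159, edgeR). Fn1 was higher in every Mttp-IKO pool, as were 14.5% of the genes tested, and the DESeq2 Wald test called it (adjusted p = 0.0237). The sum of the list, Fn1 included, was 4085 to 4236 CPM in control pools and 4269 to 5140 CPM in Mttp-IKO pools. The median log2 fold change was -0.42 for the other Mmp genes, 0.20 for the other inhibitors, -0.36 for the plasminogen and convertase list, -0.34 for the Adam genes, -0.74 for the Adamts genes and -1.07 for the matrix proteins, beside 0.01 over all genes. As for the group itself, these calls were lost when single pools were left out, down to 0 in each list without Mttp-IKO pool 2.

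**Figure D5:**
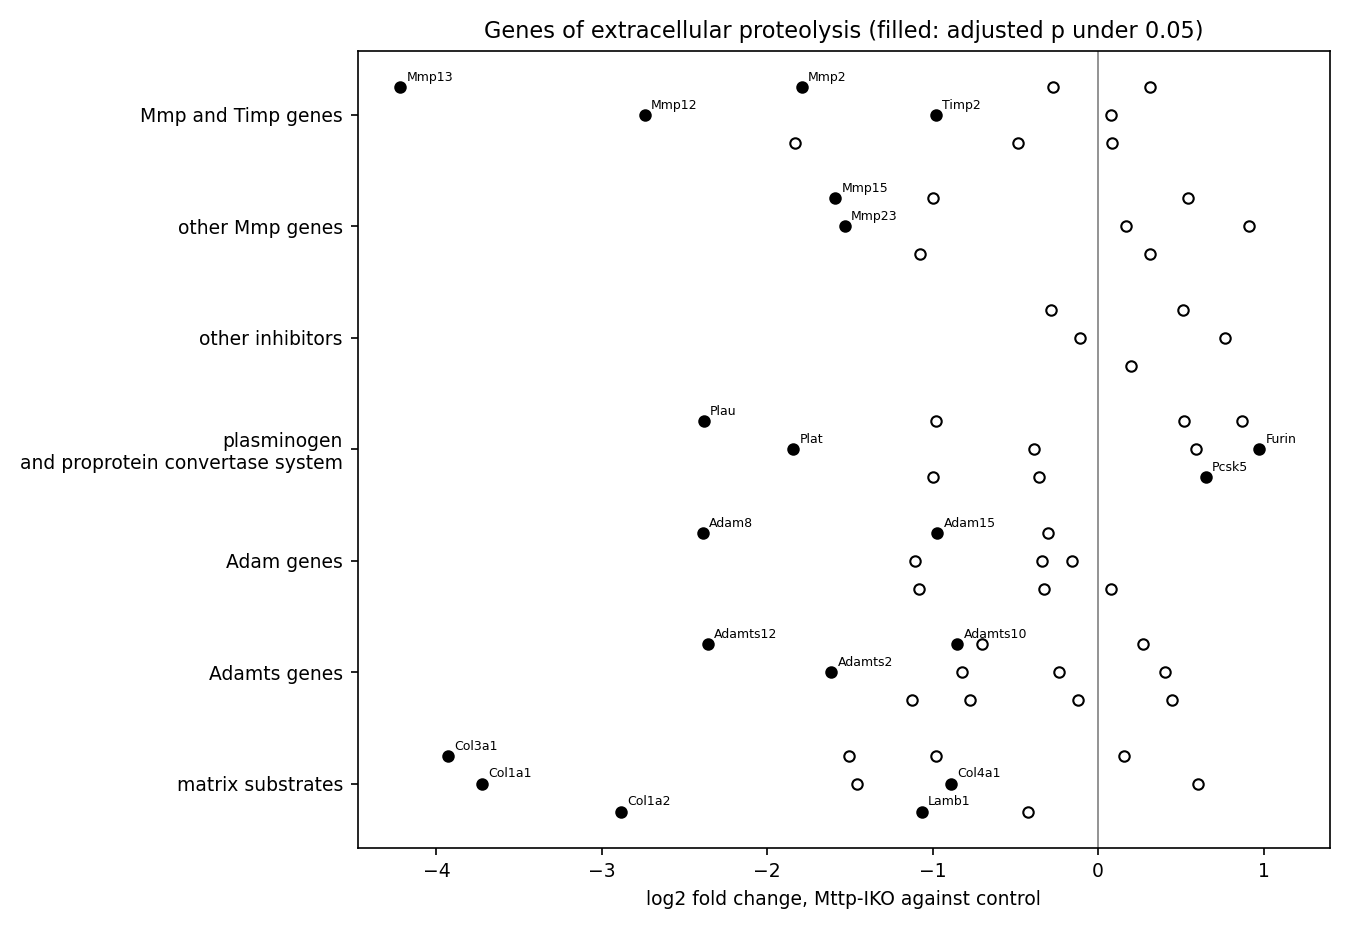
Log2 fold change of Mttp-IKO against control for every tested gene of 7 lists of extracellular proteolysis, 1 point a gene, filled and named where the adjusted p was under 0.05. Called genes lie to the left of 0 in each list that has any, except Furin and Pcsk5, and no point is filled among the other inhibitors.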

How the data were processed

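Total liver RNA was depleted of ribosomal RNA and sequenced. The authors aligned reads to GRCm38 with STAR 2.5.1a, and featureCounts 1.4.6-p5 counted those with 1 unambiguous place, so reads shared by overlapping genes or near-identical copies are missing, and use of strand is not given in the sources used here. The deposited counts of 41388 genes per pool were tested as they are. The deposited CPM and RPKM values follow from these counts and served as a check, and the series table, with the same counts and 276 repeated lines, gave the symbols.

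Pools were grouped by their titles. Genes were filtered by filterByExpr (minimum count 10, minimum total 15), scaled by TMM (factors 0.898 to 1.11) and tested in R 4.3.3 with the quasi-likelihood functions of edgeR 4.0.16, with Benjamini-Hochberg adjustment and a threshold of 0.05. The study's methods name no test for these counts. Ratios were compared by exact two-sided permutation tests. DESeq2 1.42.0, limma-voom (limma 3.58.1), other scalings and filters, removal of a loess trend with gene length (span 0.3), a replicate block and leaving out each pool were tried. The scripts were tested on simulated data. No 2 pools were alike to within sampling noise. Same-numbered pools deviated together with correlations of 0.139, 0.112 and 0.00698, so the numbers were not taken as pairs.

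The 10 genes, 6 functional lists and 13 cell type lists were chosen with earlier results of these data known. Named are all 10 genes, up to 5 called genes of each functional list or else its 2 most abundant, the 3 most abundant genes of each cell type list and any defining marker at 0, the 3 nearest profiles of each gene, and overlapping genes. Others were named after their values were seen (Mmp1a, Mmp1b, Mmp3, Mmp7, Mmp10, Timp4, A2m, Plg, Fn1, Ttr, Timd4, Pdgfrb, Colec11, Cygb, Des and Mttp).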

Additional observations from a re-analysis of the deposited data

How the results depend on the processing

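Under 10 alternatives of scaling, test, filter, block and length correction, the calls and directions of Mmp2, Mmp12, Mmp13 and Timp2 held, and the number of the 10 genes called was 4 or 5. With each pool left out it was 0 to 5. In the same fits the number of all genes called was 0 to 892 (3221 at an unadjusted p under 0.05 where it was 0), and the number in each list was 0 to 2 for the other Mmp genes, 0 to 4 for the plasminogen and convertase list, 0 to 2 for Adam genes, 0 to 4 for Adamts genes and 0 to 5 for matrix proteins, with 0 in 6 of 6 for the other inhibitors. The cause was not tested, beyond that these fits hold 5 pools.

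The DESeq2 Wald test called 1995 of all genes, 5 Adamts genes and 8 matrix proteins, among them Fn1 as higher. Limma-voom called 428 of all genes, 2 of the plasminogen and convertase list and 0 Adam genes. Total-count scaling, which moved the median of all genes to -0.17, called 5 Adamts genes. With the replicate block 592 of all genes were called, 4 of the group, 2 of the plasminogen and convertase list and 0 Adam genes, and the cause was not tested. Pools of the same number did not all deviate together, and nothing is read from calls lost under the block. Without control pool 2 and Mttp-IKO pool 3 together, added after the data had been seen, 2146 of all genes were called, 8 of the plasminogen and convertase list, 4 Adam genes and 6 Adamts genes.

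Among the 10 genes, the called genes of the functional lists, Mmp7, Pzp, Mug1 and Fn1, the direction turned for Mmp9, Mmp8 and Mmp7. Mmp9 was at -0.10 with total-count scaling, -0.072 without those 2 pools, and -0.30 to 0.59 with each pool left out. Mmp8 was at -0.10 with total-count scaling, -0.019 with limma-voom, -0.61 without those 2 pools, and -0.34 to 0.56 with each pool left out. Mmp7 was at -0.025 with total-count scaling and at -0.33 to 0.58 with each pool left out. Differences of the ratios kept their sign in every alternative run (for Mmp12 to Timp1, -1.63 to -0.30 with each pool left out). Counts of 5 to 10 reads for Mmp13 in Mttp-IKO pools and of 10 to 50 for Mmp8 limit what could be told at this depth. A genotype effect cannot be told apart from one of TAM itself.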
